A study of Mus musculus with 29 samples.

Results

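The 37 genes described here encode the liver's machinery for making glucose and for taking amino acids apart: 4 genes of gluconeogenesis, 6 of transamination and glutamate handling, 5 of aromatic amino acid breakdown, 4 of serine and glycine breakdown, 5 of histidine, lysine, proline and ornithine breakdown, 5 of methionine and sulfur metabolism, 7 of the urea cycle and 1 amino acid importer. They were chosen by name from a fixed list of symbols, and no measured value entered the rule. Earlier results of these data were known when the list was made, so the choice was not blind to them. All 37 matched 1 row each among the 38124 genes of the deposited tables, and all 37 were among the 12788 genes with enough reads to be tested in liver. The groups were livers of C57BL/6 males (an inbred strain of laboratory mouse) bought at 14 weeks and put on their diets at 4 months. The control mice were given 95% of what they would eat freely (13.6 kcal/day). The other mice were calorie-restricted to 60% (8.6 kcal/day) on diets labelled soy, fish or lard, which are taken here as the source of fat. Nothing used here gives the fat of the control diet, so calorie intake and fat cannot be told apart between control and a restricted diet. There were 3 control, 4 soy, 4 fish and 4 lard livers, each from a different mouse, and the study asks how far omega-3 fat undoes the expression change of restriction. The submitters discarded a further control liver, mouse 1071, after it clustered with another group and showed lower RNA quality, so the control group was chosen in part on expression.

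When calories are short the liver draws on amino acids. Aminotransferases and dehydratases strip off the nitrogen, the carbon skeletons enter gluconeogenesis and are released as glucose, and the urea cycle turns the ammonium into urea. Within the liver most of these enzymes are made mainly in hepatocytes, many of them near the portal vein, and many of their transcripts are classical targets of glucagon and glucocorticoid hormones.

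Levels are given as CPM, exon reads per 1000000 exon reads of the library, scaled by the TMM factors of edgeR, and the livers of a diet are always listed in the order of the mouse numbers (control 1095, 1120 and 1121, soy 1065, 1073, 1141 and 1159, fish 1067, 1123, 1124 and 1125, lard 1100, 1101, 1102 and 1130). The libraries held 11315231 to 21278699 exon reads. The soy livers 1073 and 1159 stood apart from the other 13, with first principal component values of 69.0 and 54.5 against -18.2 to -2.01, 5.47% and 5.41% of gene reads outside exons against 7.90% to 8.92%, and higher ribosomal protein transcripts. Soy estimates are therefore given with and without these livers, called the soy pair below. The fish liver 1123 held 2515 CPM of 8 skeletal muscle transcripts, against 137 to 330.3 CPM in the other 14 livers. The 7 tested hepatocyte markers were abundant in every library. They summed to 86841 to 115194 CPM in control, 135621 to 174535 in soy, 100300 to 135301 in fish and 129176 to 152846 in lard livers. Every fish liver was thus below every soy liver, and fish and lard livers overlapped. The fish minus lard estimates of these markers were below 0 for 7 of 7 (median log2 fold change -0.20). In whole liver, fewer cells of a type and less RNA per cell cannot be told apart. The part of the marker differences in the results below was not tested.

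Calorie restriction was first compared with the control diet. Passing means an adjusted p (Benjamini-Hochberg) under 0.05 over all 12788 genes in the quasi-likelihood test of edgeR. On the soy diet 2 of the 37 genes rose and 0 fell, beside 1.17% of all genes passing. On lard 2 rose and 0 fell (0.508% of all genes), and in the mean of the 3 restricted diets 2 rose and 0 fell (1.08% of all genes). These were Got1 and Cth on soy and Got1 and Tat on lard and in the mean. On fish 0 of 37 passed (0.383% of all genes) in edgeR, 9 had an unadjusted p under 0.05, and the DESeq2 Wald test and limma-voom called 1 and 0 (1.29% and 0.305% of all genes). The 3 comparisons share their control livers, so they are not independent of each other.

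Across the whole set the estimates leaned upward on soy and lard and not on fish. The median log2 fold change against control was 0.34 on soy with 31 of 37 estimates above 0, 0.20 on lard with 30 above 0, and -0.05 on fish with 13 above 0. The median of all genes tested was 0.00, 0.00 and 0.01. Leaving out the soy livers 1073 and 1159 lowered the soy median to 0.16, with 29 of 37 above 0, and left the lard median at 0.19. At an unadjusted p under 0.05 stood 51.4% of the genes on soy, 32.4% on lard and 24.3% on fish, beside 22.3%, 9.99% and 8.93% of all genes. In the plot of each restricted diet against control the fish estimates of the urea cycle lie around 0 while those of soy and lard lie to the right.

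**Figure D1:**
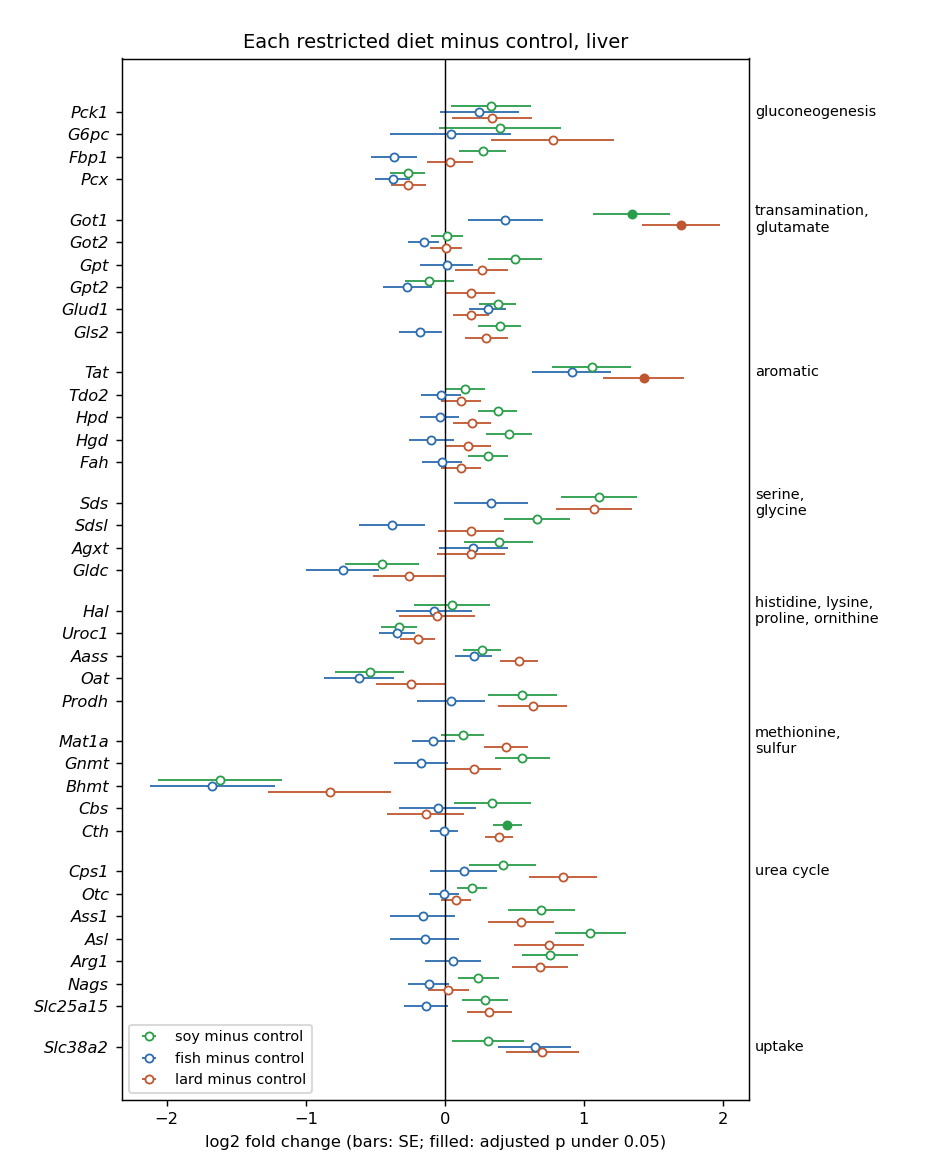
Log2 fold change in liver of each restricted diet minus control (x axis, bars are the SE) for the 37 genes (y axis, grouped by role), with filled points for genes that passed. Got1 passed on soy and lard, Cth on soy and Tat on lard, and no gene passed on fish.

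The fat sources were then compared among the restricted mice. No single gene of the set passed between fish and soy (0 of 37, with 0.0938% of all genes passing in edgeR), although 17 (45.9%) had an unadjusted p under 0.05, all lower in fish, beside 23.1% of all genes. There the DESeq2 Wald test called 12 (6.36% of all genes) and limma-voom 0 (0.0938%). Between fish and lard 0 of 37 passed (0.203% of all genes), 15 (40.5%) had an unadjusted p under 0.05, all lower in fish, beside 9.98% of all genes, and DESeq2 and limma-voom called 4 and 0 (1.28% and 0.235% of all genes). Between lard and soy 0 of 37 passed (0% of all genes), 3 (8.11%) had an unadjusted p under 0.05, beside 17.3% of all genes, and DESeq2 and limma-voom called 0 and 0 (1.18% and 0% of all genes). Against the mean of soy and lard 2 genes fell in fish livers, Asl and Cth, and 0 rose (0.344% of all genes).

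The direction was shared by nearly the whole set. The estimate was lower in fish than in soy for 36 of 37 genes (median -0.33) and lower in fish than in lard for 34 of 37 (median -0.38). Without the soy livers 1073 and 1159 the fish minus soy median was -0.24, with 31 of 37 below 0, and the fish minus lard median was -0.38, again with 34 below 0. The mean of the fish livers was the lowest of the 3 restricted diets for 33 genes (89.2%), beside 30.7% of all genes. Without those soy livers it was the lowest for 30 genes (81.1%), beside 33.3% of all genes. The exceptions among all livers were Agxt, Cbs, Glud1 and Slc38a2, and without those soy livers Bhmt, Pck1 and Tat as well. The 3 fat comparisons share livers, and the median over lard minus soy was -0.04, or 0.07 without the soy livers 1073 and 1159.

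Genes were also counted whose livers did not overlap between diets. Every fish liver lay below every lard liver for 16 of the 37 genes (43.2%), and above for 0, beside 9.87% of all genes without overlap in either direction. The fish livers lay below all soy livers for 12 genes (32.4%, beside 7.36%) and above for 0. All lard livers lay above all soy livers for 2 genes, Gpt2 and Mat1a (5.41%, beside 4.34%). Without the soy pair, which leaves 2 soy livers and so makes overlap rarer for any gene, fish lay below soy for 17 genes (45.9%, beside 19.6%), and lard lay above soy for 5 and below for 1 (16.2%, beside 15.8%). Against control the soy livers were all higher for 9 genes and all lower for 1 (27.0%, beside 12.4%), the lard livers all higher for 12 and all lower for 1 (35.1%, beside 14.3%), and the fish livers all higher for 2 and all lower for 6 (21.6%, beside 13.3%). Soy without the pair was higher than control for 11 genes and lower for 3 (37.8%, beside 29.2%).

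**Figure D2:**
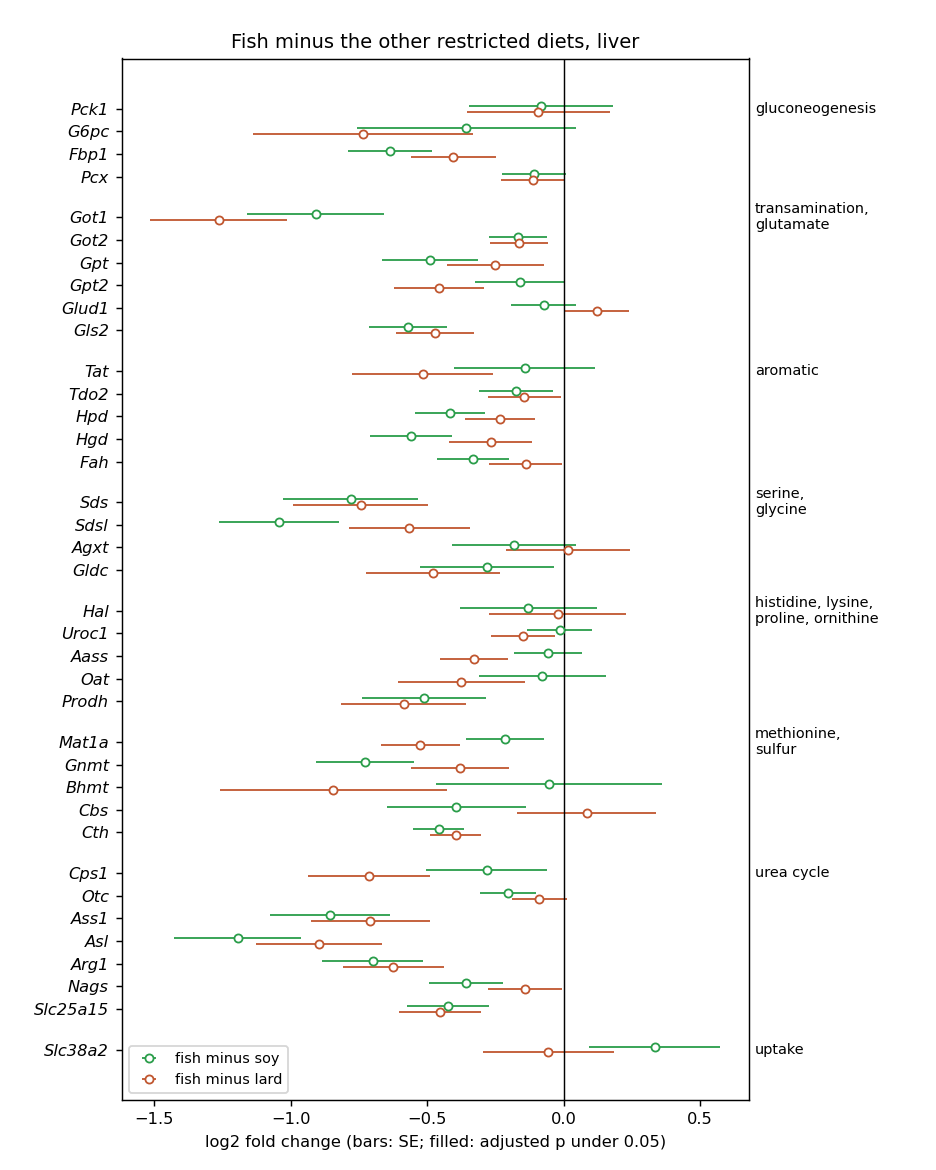
Log2 fold change in liver of fish minus soy and fish minus lard (x axis, bars are the SE) for the 37 genes (y axis, grouped by role), where no gene passed. Most points lie left of 0, with 36 of 37 below 0 against soy and 34 of 37 against lard.

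The number of genes that passed depended on single livers. Left out in turn, soy 1065 raised the count to 12 in soy minus control, 14 in fish minus soy and 10 in fish against the mean of soy and lard, and soy 1141 raised the first and second of these to 6 and 12. Over all genes the shares that passed rose too, to 12.7%, 16.4% and 2.02% without soy 1065 and to 10.4% and 10.4% without soy 1141. Without soy 1073, without soy 1159 or without control 1120 the count in soy minus control was 0, and without fish 1123 it was 2. Without any 1 of the other 9 livers it was 1 (Bhmt without control 1095, Got1 otherwise). Of all genes 0.263% (without control 1120) to 1.02% (without fish 1123) passed in these fits. In lard minus control it was 3 without soy 1141 and 0 without control 1095, lard 1100 or lard 1101, 2 without soy 1073, soy 1159, lard 1102 or lard 1130, and 1 without any other liver. The share of all genes moved too, being 0.666% without soy 1141 and 0.301%, 0.0941% and 0.157% without control 1095, lard 1100 and lard 1101. In the restricted mean the count was 3 without lard 1102 and 0 without control 1120, fish 1123, fish 1124 or lard 1100, 2 without control 1095, soy 1073, soy 1141 or lard 1130, and 1 without any other. Of all genes 0.286% (without control 1120) to 1.37% (without soy 1065) passed there. Without control 1095 the 2 genes of the restricted mean were Slc38a2 and Bhmt, so Got1 and Tat were lost. The 1 gene was Tat without lard 1101 and Got1 otherwise. In fish minus lard the count was 1 without control 1120, control 1121 or soy 1073 (0.131%, 0.132% and 0.338% of all genes). In lard minus soy it was 1 without soy 1141 (4.10% of all genes). Fish against the mean of soy and lard fell to 0 without any 1 of soy 1073, soy 1159, the fish livers or the lard livers (0.0314% to 0.321% of all genes). It was 1 without control 1120 or control 1121 (0.240% and 0.263%), where Got1 passed and both Asl and Cth were lost. With the soy livers 1073 and 1159 both left out, 6 genes rose on lard (Got1, Tat, Sds, Cth, Cps1 and Aass, beside 1.83% of all genes) and 3 fell in fish against lard (Got1, Asl and Cth, beside 0.760%). In the same fit 0 passed on soy (0.202%, with 11 at an unadjusted p under 0.05).

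None of the 4 genes of gluconeogenesis passed in any comparison. Pck1, which commits oxaloacetate to glucose synthesis, averaged 2982 ± 813 CPM (SD, n = 3) in control livers, 3751 ± 1262 in soy, 3542 ± 568 in fish and 3776 ± 1048 in lard (n = 4 each). Its groups overlapped in all comparisons, and its largest estimate was 0.34 ± 0.29 (log2 fold change ± SE) on lard (adjusted p = 0.83). G6pc, whose product releases free glucose, spanned 277 to 382 CPM in control and 402 to 769.6 CPM in lard livers, without overlap, but 219 to 672 in soy and 112 to 550.2 in fish livers. Its lard estimate of 0.77 ± 0.44 (adjusted p = 0.632) did not pass.

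Fbp1, fructose bisphosphatase, had CPM values of 1117, 1072 and 1394 in the control livers, 1139, 1634, 1193 and 1798 in soy, 936, 941, 953 and 881 in fish and 1056, 1205, 1457 and 1190.2 in lard livers. All 4 fish livers lay below every other liver. The difference was -0.64 ± 0.15 (adjusted p = 0.106) for fish minus soy, -0.40 ± 0.15 (adjusted p = 0.404) for fish minus lard and -0.36 ± 0.17 (adjusted p = 0.535) for fish minus control. Leaving out the soy livers 1073 and 1159, which held the 2 highest values, fish minus soy was -0.33 ± 0.13 (adjusted p = 0.512).

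Pcx, pyruvate carboxylase of the mitochondrion, had CPM values of 662, 718 and 809 in the control livers, 691, 579, 544 and 612 in soy, 563, 542, 610.1 and 537 in fish and 579, 595, 720.2 and 540.1 in lard livers. Here the fish livers all lay below the controls, and 1 soy and 1 lard liver reached the control range. The estimates against control were -0.37 ± 0.13 (adjusted p = 0.349) on fish, -0.27 ± 0.13 (adjusted p = 0.227, and -0.24 ± 0.14 with adjusted p = 0.473 without the soy pair) on soy and -0.26 ± 0.13 (adjusted p = 0.508) on lard.

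Got1, the cytosolic aspartate aminotransferase, which moves nitrogen between glutamate and aspartate (ENSMUSG00000025190, chromosome 19, 43499752 to 43524605, minus strand, coordinates of the deposited tables), showed the largest rise of the set. Over the livers, CPM was 221, 104 and 294 in the control livers, 386, 656, 521 and 529.6 in soy, 250.4, 336, 271 and 257 in fish and 719, 797, 533 and 628 in lard livers. All soy and all lard livers were above all control and all fish livers, while fish and control livers overlapped. It rose by 1.70 ± 0.28 on lard (adjusted p = 0.0141), by 1.34 ± 0.28 on soy (adjusted p = 0.0289) and by 1.16 ± 0.25 in the mean of the restricted diets (adjusted p = 0.0341).

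The fish estimate of Got1 against control was 0.44 ± 0.27 (adjusted p = 0.744), and fish minus lard and fish minus soy were -1.26 ± 0.25 (adjusted p = 0.0632) and -0.91 ± 0.25 (adjusted p = 0.106, and -0.70 ± 0.29 with adjusted p = 0.512 without the soy pair). Without the soy livers 1073 and 1159 the fish minus lard difference passed, at -1.26 ± 0.25 (adjusted p = 0.0371), and the soy rise did not, at 1.14 ± 0.31 (adjusted p = 0.139). The rise on lard was called in 20 of 23 alternatives, with adjusted p from 7.28e-07 to 0.061. It was lost without control 1095, lard 1100 or lard 1101. The rise on soy was called in 17 of 23 alternatives, with adjusted p from 0.000197 to 0.264, and was lost without control 1095, control 1120, soy 1073 or soy 1159. The rise in the restricted mean was 1.09 ± 0.25 (adjusted p = 0.0393) without the soy pair, was called in 17 of 23 alternatives, with adjusted p from 0.000133 to 0.118, and was lost without control 1095, control 1120, fish 1123, fish 1124, lard 1100 or lard 1101. For this mean the alternative of only the diets compared keeps every diet, so it repeats the main fit and adds no check. Reads of Got1 outside its exons were at 8.07 to 23.4 CPM in control, 11.6 to 74.2 in soy, 26.6 to 52.2 in fish and 60.8 to 124 in lard livers.

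**Figure D3:**
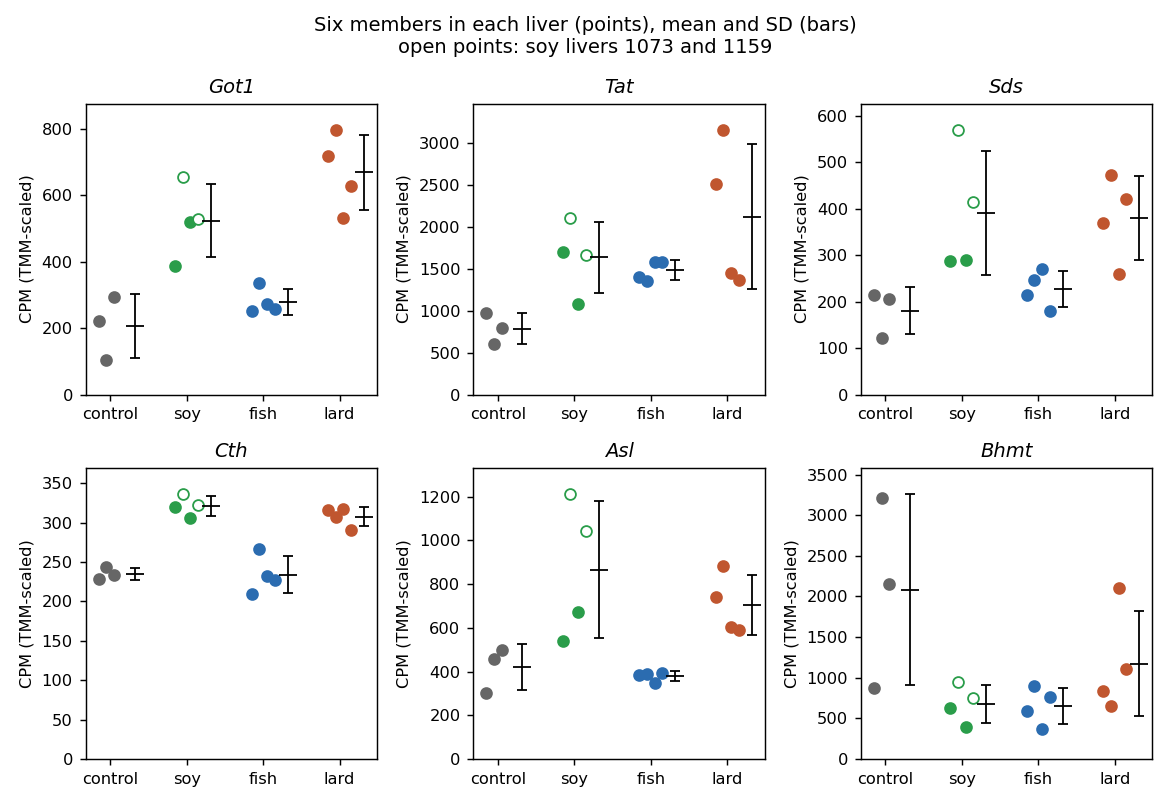
CPM in each liver (points) with the mean and SD of each diet (bars, n = 3 control and n = 4 otherwise) for Got1, Tat, Sds, Cth, Asl and Bhmt, and open points for the soy livers 1073 and 1159. Got1, Cth and Asl show fish livers below every soy and lard liver.

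The other 5 genes of this role did not pass in any comparison. Gpt, the alanine aminotransferase of the cytosol, averaged 254 ± 39.1 CPM in control and 361 ± 113, 257 ± 18.5 and 306 ± 19.0 CPM in soy, fish and lard livers. Its soy mean held 496 and 410.4 CPM from the soy livers 1073 and 1159, against 260 and 277 in the other 2. Gpt2, the mitochondrial form, averaged 398 ± 33.3 CPM in fish and 547 ± 58.4 in lard livers (-0.46 ± 0.16 (adjusted p = 0.367)). Gls2, the liver glutaminase that releases ammonium from glutamine, spanned 198 to 259 CPM in fish livers, below all soy (303 to 407) and lard livers (267 to 371).

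The Gls2 differences were -0.57 ± 0.14 (adjusted p = 0.106, and -0.52 ± 0.16 with adjusted p = 0.425 without the soy pair) for fish minus soy and -0.47 ± 0.14 (adjusted p = 0.256) for fish minus lard. Got2, the mitochondrial aspartate aminotransferase, spanned 447 to 507 CPM in fish livers, below all controls (520.5 to 557 CPM), at -0.15 ± 0.11 (adjusted p = 0.828). Glud1, glutamate dehydrogenase, was an exception to the fish pattern, with all fish livers (819 to 995 CPM) and all soy livers (784 to 1087) above all controls (682 to 776). Its estimates were 0.31 ± 0.13 (adjusted p = 0.492) on fish and 0.38 ± 0.13 (adjusted p = 0.128, and 0.49 ± 0.12 with adjusted p = 0.1 without the soy pair) on soy.

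Tat, tyrosine aminotransferase, is the textbook liver gene induced by glucocorticoids and fasting (ENSMUSG00000001670, chromosome 8, 109990437 to 109999803, plus strand). The CPM values were 974, 600.1 and 793 in the control livers, 1701, 2109, 1079.9 and 1667 in soy, 1406, 1358, 1588 and 1589 in fish and 2519, 3160.1, 1446 and 1372 in lard livers. Every restricted liver was above every control liver, and the lard livers 1100 and 1101 stood well above the lard livers 1102 and 1130. Tat rose by 1.43 ± 0.29 on lard (adjusted p = 0.0405) and by 1.13 ± 0.25 in the mean of the restricted diets (adjusted p = 0.0461), and its estimates on soy and fish were 1.06 ± 0.29 (adjusted p = 0.0731, and 0.81 ± 0.32 with adjusted p = 0.285 without the soy pair) and 0.91 ± 0.28 (adjusted p = 0.298).

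For Tat the fish livers overlapped with the soy and the lard livers. Fish minus soy was -0.14 ± 0.26 (adjusted p = 0.745, and 0.09 ± 0.31 with adjusted p = 0.945 without the soy pair) and fish minus lard -0.52 ± 0.26 (adjusted p = 0.526). The rise on lard was called in 11 of 23 alternatives, with adjusted p from 0.000165 to 0.171, and the rise in the restricted mean in 12 of 23 alternatives, with adjusted p from 0.000415 to 0.267. Among the latter, only the diets compared again repeats the main fit. With 1 liver left out, the lard call held only where that liver was soy 1073, soy 1141, soy 1159, lard 1102 or lard 1130, and the call in the restricted mean only where it was soy 1073, soy 1141, lard 1101, lard 1102 or lard 1130. Without the soy pair the estimates were 1.42 ± 0.28 (adjusted p = 0.0276) on lard and 1.05 ± 0.25 (adjusted p = 0.0484) in the restricted mean.

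The promoters of Got1 and Tat, which both rose on lard, and of the gluconeogenesis genes Pck1 and G6pc, whose promoters are the textbook examples of hormone control, are shown from 250 bases before to 50 bases after the annotated start. The sequences are from RefSeq on GRCm38.p6, printed 5′ to 3′ on the gene's strand, Got1 on the minus strand at chr19:43524556-43524855 and the others on the plus strand, Tat at chr8:109990186-109990485, Pck1 at chr2:173152823-173153122 and G6pc at chr11:101367466-101367765. Capitals mark a match on either strand to TGACG (the half-site of cyclic AMP response elements), TGATGNAA (the composite site of C/EBP and ATF factors), AGAACA (a glucocorticoid receptor half-site), GTAAACA (forkhead factors) or TTGCNNAA (C/EBP), and no 2 marked matches overlap.
Got1: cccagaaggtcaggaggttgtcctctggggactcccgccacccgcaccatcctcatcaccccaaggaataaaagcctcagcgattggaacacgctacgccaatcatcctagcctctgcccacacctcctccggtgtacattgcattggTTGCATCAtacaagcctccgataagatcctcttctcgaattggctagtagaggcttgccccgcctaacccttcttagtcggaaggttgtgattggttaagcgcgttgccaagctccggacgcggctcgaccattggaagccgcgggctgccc
Tat: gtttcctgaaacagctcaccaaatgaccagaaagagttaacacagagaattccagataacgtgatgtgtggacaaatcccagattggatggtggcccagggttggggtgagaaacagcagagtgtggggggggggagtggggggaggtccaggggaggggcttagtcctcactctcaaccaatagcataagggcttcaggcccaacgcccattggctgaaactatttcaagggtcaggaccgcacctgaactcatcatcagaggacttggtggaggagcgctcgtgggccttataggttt
Pck1: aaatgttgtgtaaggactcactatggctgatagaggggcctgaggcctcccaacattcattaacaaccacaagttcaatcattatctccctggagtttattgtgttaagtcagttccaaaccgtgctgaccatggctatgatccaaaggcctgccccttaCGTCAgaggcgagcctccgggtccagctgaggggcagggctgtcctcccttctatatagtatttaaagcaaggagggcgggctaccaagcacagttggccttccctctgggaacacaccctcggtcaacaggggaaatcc
G6pc: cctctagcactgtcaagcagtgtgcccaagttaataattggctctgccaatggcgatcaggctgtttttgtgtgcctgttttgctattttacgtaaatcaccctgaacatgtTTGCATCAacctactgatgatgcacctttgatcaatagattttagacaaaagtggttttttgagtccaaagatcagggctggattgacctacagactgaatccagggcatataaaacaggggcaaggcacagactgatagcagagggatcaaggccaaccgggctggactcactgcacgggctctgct

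Got1 and G6pc each hold 1 match to the composite motif, starting -102 and -138 bases from the start, in the same orientation. Pck1 holds 1 TGACG match at -90, and Tat holds no match to these 5 motifs in this window. Among 30 promoters of 28 of the 37 genes, 2 (6.67%) held the composite motif, beside 3.97% of all 32851 promoters in the table. TGACG was in 5 (16.7%, beside 20.8%), TTGCNNAA in 3 (10%, beside 10.8%), AGAACA in 1 (3.33%, beside 19.0%) and GTAAACA in 0 (beside 3.65%). Gpt, Gls2, Sds, Sdsl, Mat1a, Cth, Cps1, Asl and Arg1 were not matched. A match describes letters only, and factor binding was not measured here.

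Behind Tat come the other enzymes of tyrosine and tryptophan breakdown, and none of these 4 passed. Hpd, Hgd and Fah, which act after Tat in tyrosine breakdown, were highest in the soy livers 1073 and 1159, at 2681 and 2339.8 CPM for Hpd. The fish livers lay below all soy and lard livers for Hpd (1587 to 1775 CPM, against 1828 to 2681 and 1779 to 2039) and below all lard livers for Hgd. Fish minus soy was -0.42 ± 0.13 (adjusted p = 0.116) for Hpd and -0.56 ± 0.15 (adjusted p = 0.106) for Hgd, and without those soy livers -0.19 ± 0.10 (adjusted p = 0.588) and -0.24 ± 0.12 (adjusted p = 0.543). Fah averaged 561 ± 35.9 CPM in fish and 618 ± 38.6 in lard livers. Tdo2, the tryptophan dioxygenase, stayed within 1321 to 1926 CPM over all 15 livers, with estimates against control of -0.03 on fish, 0.11 on lard and 0.14 on soy (0.21 without the soy pair).

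Sds, serine dehydratase, turns serine into pyruvate and ammonium. Per liver, CPM was 215, 122 and 205 in the control livers, 287, 569, 290.2 and 414 in soy, 213, 246, 269 and 181 in fish and 369, 473, 259.7 and 420.2 in lard livers. All soy and lard livers were above all controls, and the fish livers overlapped with the controls. The estimates were 1.11 ± 0.27 (adjusted p = 0.0569) on soy, 1.07 ± 0.27 (adjusted p = 0.102) on lard and 0.33 ± 0.27 (adjusted p = 0.848) on fish.

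Leaving out the soy livers 1073 and 1159, the lard difference of Sds passed, at 1.07 ± 0.22 (adjusted p = 0.0342), and soy was 0.67 ± 0.26 (adjusted p = 0.273). Of the exon bases of Sds, 21.3% lie opposite exons of Plbd2 and 8.32% opposite an antisense transcript, and 78.9% of its reads were unique, so part of its count is uncertain.

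Sdsl, the relative of Sds, was the least abundant gene of the set. Its CPM values were 9.61, 6.81 and 7.77 in the control livers, 8.23, 16.4, 9.91 and 16.7 in soy, 6.76, 5.52, 6.24 and 6.33 in fish and 9.93, 11.1, 7.03 and 8.58 in lard livers. The 4 fish livers were below all soy and lard livers, and the soy livers 1073 and 1159 were well above the other 2. Fish minus soy was -1.04 ± 0.22 (adjusted p = 0.084), or -0.54 ± 0.18 (adjusted p = 0.459) without those 2 livers, and fish minus lard was -0.56 ± 0.22 (adjusted p = 0.412). Agxt, the alanine-glyoxylate aminotransferase, overlapped in all groups (120.4 to 199 CPM in control and 139 to 187 in fish livers, 0.20 ± 0.25 (adjusted p = 0.939)). Gldc, of the glycine cleavage system, was below all controls in all fish livers (36.1 to 63.0 against 65.5 to 114 CPM, -0.73 ± 0.26 (adjusted p = 0.375)).

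In the breakdown of histidine, lysine, proline and ornithine no gene passed, and on soy against control 3 estimates were above 0 and 2 below. Aass, which opens lysine breakdown, had CPM values of 274, 279 and 303 in the control livers, 353, 274, 404 and 341 in soy, 331, 349, 294 and 343 in fish and 463, 440.3, 390.5 and 358 in lard livers. All lard livers were above all control and fish livers. Lard minus control was 0.53 ± 0.14 (adjusted p = 0.103) and passed without the soy livers 1073 and 1159, at 0.53 ± 0.10 (adjusted p = 0.0257). Lard minus soy was 0.27 ± 0.12 (adjusted p = 0.286, and 0.12 ± 0.12 with adjusted p = 0.883 without the soy pair).

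Uroc1, urocanate hydratase of histidine breakdown, went the other way. It was lower than every control (473 to 499 CPM) in all 12 restricted livers, which spanned 333 to 443 CPM in soy, 337 to 455 in fish and 378 to 466 in lard. The estimates were -0.33 ± 0.13 (adjusted p = 0.154, and -0.22 ± 0.13 with adjusted p = 0.473 without the soy pair), -0.34 ± 0.13 (adjusted p = 0.403) and -0.20 ± 0.13 (adjusted p = 0.71). Hal, which precedes Uroc1 in the pathway, overlapped in all groups (-0.03 ± 0.23 (adjusted p = 0.983, and -0.03 ± 0.23 with adjusted p = 0.972 without the soy pair) in the restricted mean). Oat, ornithine aminotransferase, averaged 771 ± 178 CPM in control and 502 ± 149 in fish livers (-0.62 ± 0.25 (adjusted p = 0.456)), with 47.2% of its reads unique. Prodh, proline dehydrogenase, averaged 169.8 ± 58.1 CPM in control and 263 ± 52.3 in lard livers (0.63 ± 0.25 (adjusted p = 0.371)).

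Cth, cystathionine gamma-lyase, makes cysteine in the last step of transsulfuration (ENSMUSG00000028179, chromosome 3, 157894248 to 157925077, minus strand). It had small differences and a small spread. Over the livers, CPM was 228, 244 and 233 in the control livers, 320.3, 336, 306 and 322 in soy, 209.8, 266, 232 and 227 in fish and 316, 307, 317 and 290.2 in lard livers. The soy and lard livers were all above all control and fish livers, and the fish livers overlapped with the controls. Cth rose by 0.45 ± 0.10 on soy (adjusted p = 0.0453) and fell by 0.43 ± 0.08 in fish against the mean of soy and lard (adjusted p = 0.043).

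The lard estimate of Cth was 0.39 ± 0.10 (adjusted p = 0.118), and fish minus lard and fish minus control were -0.40 ± 0.09 (adjusted p = 0.117) and -0.01 ± 0.10 (adjusted p = 0.999). Without the soy livers 1073 and 1159 the rise on lard and the fall in fish against lard passed, at 0.38 ± 0.08 (adjusted p = 0.041) and -0.39 ± 0.08 (adjusted p = 0.0371), and the soy rise did not, at 0.41 ± 0.10 (adjusted p = 0.1). The rise on soy was called in 7 of 23 alternatives, with adjusted p from 3.46e-05 to 0.351. With 1 liver left out it held only where that was soy 1065, soy 1141 or fish 1123. The fall in fish against the mean of soy and lard was -0.41 ± 0.07 (adjusted p = 0.0384) without the soy pair, was called in 8 of 23 alternatives, with adjusted p from 4.89e-07 to 0.187, and with 1 liver left out only where that was control 1095, soy 1065 or soy 1141.

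Bhmt, which returns homocysteine to methionine, had the largest negative estimates of the set. The CPM values were 869.8, 3216 and 2156 in the control livers, 623, 947, 394 and 745 in soy, 587, 893, 372 and 761 in fish and 830.1, 654, 2098 and 1104 in lard livers. Control 1120, control 1121 and lard 1102 stood above the other 12 livers, so control 1095 lay among the restricted livers. The estimates were -1.67 ± 0.45 (adjusted p = 0.169) on fish, -1.62 ± 0.45 (adjusted p = 0.0766, and -2.03 ± 0.58 with adjusted p = 0.155 without the soy pair) on soy, -0.83 ± 0.44 (adjusted p = 0.589) on lard and -1.37 ± 0.35 (adjusted p = 0.0786) in the restricted mean.

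Leaving out the soy livers 1073 and 1159, the fall of Bhmt in the restricted mean passed, at -1.51 ± 0.37 (adjusted p = 0.0494). That fall was called in 4 of 23 alternatives, among them without control 1095 and without lard 1102. Without control 1095 the fall on soy passed too. Only 42.7% of the exon reads of Bhmt were unique, so its level rests in large part on reads that also match elsewhere. Mat1a, which makes S-adenosylmethionine in liver, had CPM values of 3051, 4344 and 4521 in the control livers, 4369, 3576, 4750.1 and 4679.8 in soy, 3373, 3932, 3457 and 4219 in fish and 5251, 5571, 5897 and 4828 in lard livers. All lard livers were above all other livers. Its estimates were 0.44 ± 0.16 (adjusted p = 0.283) for lard minus control, -0.52 ± 0.14 (adjusted p = 0.19) for fish minus lard and 0.31 ± 0.14 (adjusted p = 0.285, and 0.24 ± 0.16 with adjusted p = 0.836 without the soy pair) for lard minus soy.

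Gnmt, the methyltransferase that uses up S-adenosylmethionine, was at 1851 and 1849 CPM in the soy livers 1073 and 1159 and at 992 and 1096 in the other soy livers. Its fish livers (819 to 966 CPM) lay below all soy and lard livers, with fish minus soy at -0.73 ± 0.18 (adjusted p = 0.106), or -0.26 ± 0.11 (adjusted p = 0.512) without those 2 livers. Cbs, the first enzyme of transsulfuration, overlapped in all groups, with estimates against control of -0.14 on lard, -0.05 on fish and 0.34 on soy (0.24 without the soy pair).

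The urea cycle genes shared their direction on soy and lard. All 7 estimates were above 0 on soy (median 0.42) and on lard (median 0.55), while on fish 2 were above 0 and 5 below (median -0.12). All 7 were lower in fish than in soy (median -0.42) and than in lard (median -0.62). Without the soy pair these were again all 7 on soy (median 0.53) and all 7 in fish minus soy (median -0.55). Of the 7, 1 passed in 1 comparison, Asl in fish against the mean of soy and lard.

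Asl, argininosuccinate lyase, releases arginine and fumarate (ENSMUSG00000025533, chromosome 5, 130011258 to 130025132, minus strand). Per liver, CPM was 300.4, 456 and 500.3 in the control livers, 539, 1210.2, 673 and 1041 in soy, 384, 389, 347 and 395 in fish and 741, 884, 603 and 589 in lard livers. The fish livers lay close together, below all soy and lard livers and inside the control range. Asl fell by 1.04 ± 0.21 in fish against the mean of soy and lard (adjusted p = 0.0457), and fish minus soy and fish minus lard were -1.19 ± 0.23 (adjusted p = 0.071) and -0.90 ± 0.23 (adjusted p = 0.156).

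Against control Asl was at 1.05 ± 0.25 (adjusted p = 0.0545, and 0.53 ± 0.21 with adjusted p = 0.28 without the soy pair) on soy, 0.75 ± 0.25 (adjusted p = 0.247) on lard and -0.15 ± 0.25 (adjusted p = 0.97) on fish. The soy livers 1073 and 1159 held the 2 highest values, and without them fish minus soy was -0.68 ± 0.19 (adjusted p = 0.382), fish minus lard passed at -0.89 ± 0.16 (adjusted p = 0.0299), and fish against the mean of soy and lard was -0.79 ± 0.15 (adjusted p = 0.0571). The fall against that mean was called in 8 of 23 alternatives, with adjusted p from 0.000179 to 0.189, and with 1 liver left out only where that was control 1095, soy 1065 or soy 1141. Reads of Asl outside exons were at 34.8 to 48.1 CPM in control, 49.0 to 57.2 in fish, 49.4 to 54.5 in soy and 59.2 to 121 in lard livers. Fish and soy overlapped there and fish and lard did not. Every fish liver was above every control there, unlike in the exon reads.

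Cps1, the entry enzyme that fixes ammonium, spanned 4023 to 5799 CPM in lard livers, above all controls (2668 to 3126) and fish livers (2596 to 3498). It was at 0.85 ± 0.24 (adjusted p = 0.155) on lard, which passed without the soy livers 1073 and 1159 at 0.84 ± 0.18 (adjusted p = 0.036). In soy livers it ranged widely, from 2547 CPM in mouse 1159 to 5962 CPM in mouse 1141. Ass1, which joins citrulline and aspartate, averaged 3079.7 ± 635 CPM in soy, 2781 ± 572 in lard and 1703 ± 360.2 in fish livers. Its fish minus soy difference was -0.85 ± 0.22 (adjusted p = 0.106, and -0.86 ± 0.26 with adjusted p = 0.432 without the soy pair) and fish minus lard -0.71 ± 0.22 (adjusted p = 0.275), with 44.9% of reads unique. Arg1, arginase, which releases urea, was above all controls (817 to 1067 CPM) in all soy (1111 to 1952) and lard livers (1089 to 1783).

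The Arg1 estimates were 0.76 ± 0.20 (adjusted p = 0.0708, and 0.61 ± 0.22 with adjusted p = 0.259 without the soy pair) on soy, 0.68 ± 0.20 (adjusted p = 0.175) on lard and 0.06 ± 0.20 (adjusted p = 0.99) on fish. Slc25a15, the mitochondrial ornithine carrier, was lower in every fish liver (171 to 225 CPM) than in every soy (228 to 326) and lard liver (233 to 321). Fish minus lard was -0.45 ± 0.15 (adjusted p = 0.309). Otc, ornithine transcarbamylase, and Nags, which makes the activator of Cps1, had the smallest differences of the role, at -0.09 ± 0.10 (adjusted p = 0.866) and -0.14 ± 0.14 (adjusted p = 0.825) for fish minus lard. Of the exon bases of Nags 15.6% lie opposite an antisense transcript.

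Slc38a2, a sodium-coupled importer of neutral amino acids that many cell types carry, was the 1 gene higher in fish than in soy by estimate, where 6 were without the soy pair. Its CPM values were 205, 86.4 and 111 in the control livers, 238, 143, 140.2 and 143 in soy, 187, 209, 255 and 188 in fish and 263, 194, 198 and 217 in lard livers. The 4 fish and 4 lard livers overlapped with control 1095 alone among the controls. Without that control Slc38a2 passed in the restricted mean. The estimates were 0.70 ± 0.26 (adjusted p = 0.327) on lard, 0.64 ± 0.26 (adjusted p = 0.466) on fish and 0.31 ± 0.26 (adjusted p = 0.495, and 0.49 ± 0.31 with adjusted p = 0.502 without the soy pair) on soy.

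**Figure D4:**
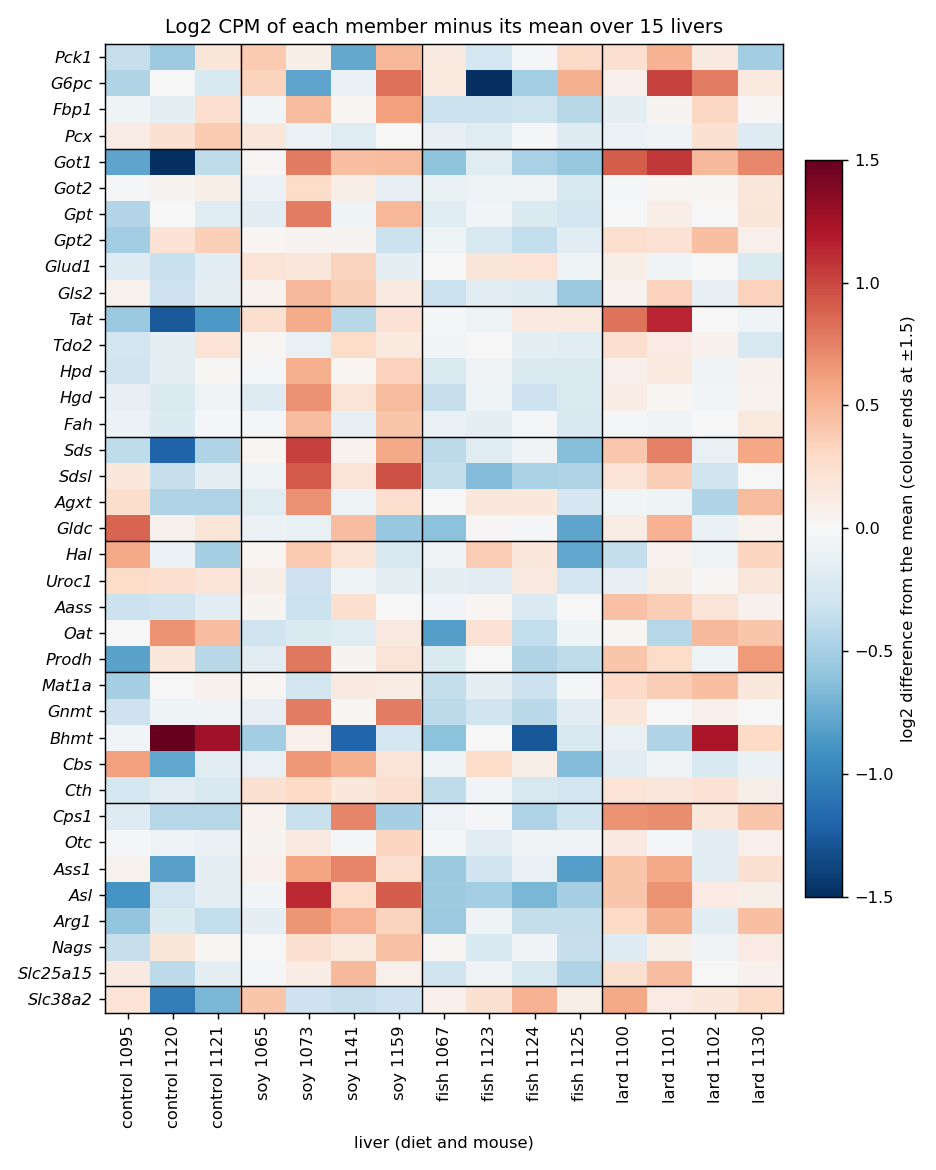
Log2 CPM of each gene minus its mean over the 15 livers (colour, log2 units, ends at ±1.5), with livers in columns by diet and genes in rows by role. The fish columns are mostly blue in the urea cycle rows, and the soy columns 1073 and 1159 are on average highest above the mean in Asl, Sdsl and Sds.

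The median over the 37 genes of a liver's log2 difference from the mean of all livers was computed for each liver. It was -0.19, -0.17 and -0.14 in control, 0.02, 0.29, 0.10 and 0.21 in soy, -0.18, -0.08, -0.22 and -0.25 in fish, and 0.13, 0.14, 0.01 and 0.12 in lard livers. The fish livers overlapped with the controls and lay below every soy and lard liver, as the heat map of the 37 genes shows by column. The fish liver 1123, which held the muscle transcripts, was the highest of the fish livers, and without it the fish minus lard median was -0.41.

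Levels between genes were compared as the authors' RPKM, reads per kilobase of exon and 1000000 reads. The median over the 15 livers ran from 1279.8 RPKM for Ass1, 1253 for Pck1 and 1232 for Mat1a down to 24.9 for Nags, 15.8 for Gldc and 4.98 for Sdsl. The ranges of the top 3 overlapped, so these neighbours in the order did not differ beyond their spread. In the 14 hindlimb muscles of the same study 33 of the 37 genes were below their lowest liver in every muscle, and 14 had a muscle median under 1 RPKM. The exceptions were Got1 (177 RPKM in muscle and 169.8 in liver), Got2 (172 RPKM in muscle and 195 in liver), Gpt2 (52.8 RPKM in muscle and 82.2 in liver) and Slc38a2 (29.0 RPKM in muscle and 38.0 in liver), given as medians. The tissue difference was not tested.

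**Figure D5:**
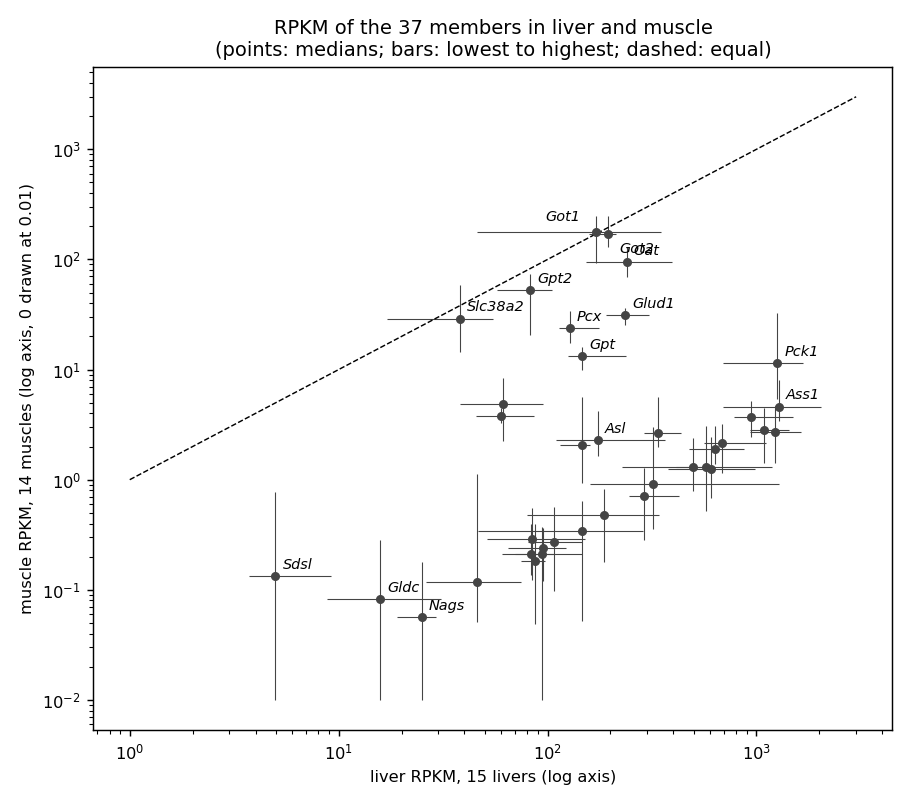
RPKM of the 37 genes in liver (x axis, log scale) and muscle (y axis, log scale, 0 drawn at 0.01), with points at medians and bars from the lowest to the highest of 15 livers and 14 muscles. Got1 and Got2 sit on the dashed line of equal levels, and 33 genes lie below it without overlap.

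Genes around the set were counted from lists made by name. Of 32 tested genes of other amino acid breakdown 1 fell on soy against control, Suox, sulfite oxidase, by 0.55 ± 0.12 (adjusted p = 0.0453), and 0 passed elsewhere. Without the soy pair the Suox estimate was -0.42 ± 0.12 (adjusted p = 0.17). The medians of that list were 0.08 on soy (-0.09 without the soy pair), -0.14 for fish minus soy over all livers and -0.11 for fish minus lard. Of its 32 estimates 24 were below 0 for fish minus soy and 23 for fish minus lard, so most of these genes were lower in fish too. Of 13 genes of amino acid transport and glutamine synthesis, and of 18 hormone receptors and regulators, 0 passed in any comparison by edgeR (0 to 3 and 2 to 4 had an unadjusted p under 0.05). Their fish minus lard medians were -0.08 and -0.06.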

How the data were processed

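RNA sequencing libraries of 15 livers and 14 hindlimb muscles from mice on 4 diets were used. The authors deposited counts of exon reads per gene and library, and RPKM values made from them, per the file headers. The submitters' processing notes name GRCm38 and FastQC. The sources used here do not name an aligner, counting program, annotation or use of strand.

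The 37 genes and the other gene lists were chosen with earlier results of these data known. Total exon reads of all 15 livers were fitted together in R 4.3.3 with edgeR 4.0.16 (TMM factors, filterByExpr with a minimum count of 10, quasi-likelihood F test), and p-values were adjusted by Benjamini-Hochberg over 12788 genes, with a threshold of 0.05. The SE is the log2 fold change divided by the square root of F. Printed CPM are counts per 1000000 scaled by TMM. The common biological coefficient of variation was 0.212. Every one of the 37 genes is named. CPM in every liver are given for those that passed in a comparison, were among the 3 of smallest p in one, or had the smallest p of their role, and up to 3 genes past the threshold are named of each other list. The fit was tested on simulated data. Alternatives were DESeq2 1.42.0 (size factors or Wald test), voom in limma 3.58.1, no filter, only the diets compared, the library code number as a block, unique reads, omission of the soy livers 1073 and 1159, and omission of each liver. Replicates are separate mice, and the smallest chi-square per degree of freedom between livers of a diet was 17.6, so no library was a repeat of another. Depth was 11315231 to 21278699 exon reads. Symbols were matched for 36345 of 38124 genes. RPKM are used only to compare levels between genes and tissues. A list of further genes on the route from sugars to glucose is not reported here.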

Additional observations from a re-analysis of the deposited data

Results flagged for a closer look

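In 3 of 111 sets of 4 livers (37 genes on 3 diets), 1 liver stood far from the other 3, with a gap over the range above Dixon's 95% critical value for 4 values. Chance gives about 1 in 20. Gpt2 was 365.6 CPM in soy 1159 and 469 to 474 CPM in the other soy livers. Hpd was 1775 CPM in fish 1123 and 1587 to 1594 CPM in the other fish livers, and this is the liver with the muscle transcripts. Slc38a2 was 238 CPM in soy 1065 and 140 to 143 CPM in the other soy livers.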

How the results depend on the processing

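Without the soy livers 1073 and 1159, 26 of 296 estimates (37 genes in 8 comparisons) changed sign, 15 of them in lard minus soy and 5 in fish minus soy, and 0 of the 26 passed in either fit. Among them Sdsl in lard minus soy went from -0.48 to 0.021, and the lard minus soy median (-0.04) changed sign too. The other alternatives changed the sign of 0 to 21 estimates. Counts of genes that passed moved more than medians did. Under the DESeq2 Wald test the counts were 8 for soy, 1 for fish, 7 for lard and 5 for the restricted mean against control, 12 for fish minus soy, 4 for fish minus lard and 11 for fish against the mean of soy and lard. That test called more of all genes as well, 6.77%, 1.29%, 2.14%, 2.65%, 6.36%, 1.28% and 2.27% in the same order. Without a filter 1 passed for soy minus control and 1 for fish minus lard (0.805% and 0.151% of all genes). With only the diets compared the counts were 0 for soy minus control, 4 for fish minus lard and 1 for fish against the mean. Of all genes 0.2503%, 1.104% and 0.1757% passed there, in the same order. Without the soy livers 1073 and 1159 the counts were 0 for soy, 6 for lard and 4 for the restricted mean against control, 3 for fish minus lard and 1 for fish against the mean. The shares of all genes were 0.202%, 1.83%, 2.53%, 0.760% and 0.279% in the same order. The medians of the 37 genes were then 0.16 for soy minus control, -0.24 for fish minus soy, 0.071 for lard minus soy and -0.26 for fish against the mean. The cause of these shifts was not tested.

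With each liver left out in turn, the counts ran from 0 to 12 for soy, 0 to 0 for fish, 0 to 3 for lard and 0 to 3 for the restricted mean against control, 0 to 14 for fish minus soy, 0 to 1 for fish minus lard, 0 to 1 for lard minus soy and 0 to 10 for fish against the mean. Against control the shares of all genes were 0.263% to 12.7%, 0.116% to 0.636%, 0.0941% to 0.667% and 0.286% to 1.37%. Between fats they were 0% to 16.4%, 0% to 0.338%, 0% to 6.12% and 0.0314% to 2.02%. The medians ran from 0.27 to 0.38, -0.10 to -0.01, 0.19 to 0.29, 0.14 to 0.23, -0.37 to -0.27, -0.41 to -0.34, -0.10 to -0.01 and -0.39 to -0.29 in the same order.

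No pairing of the livers by library code number was seen in correlations of their deviations from the diet means. Same-numbered livers of different diets correlated at a median of -0.02 (21 pairs, -0.16 to 0.16, 3 above 0.1). Other pairs correlated at a median of 0.01 (63 pairs, 10 above 0.1). With 3 or 4 livers a diet this check cannot decide whether livers of a number share an effect. With the code number as a replicate block 1 gene, Got1, passed for soy, for lard and for the restricted mean against control (0.759%, 0.305% and 0.782% of all genes). In that fit 0 passed for fish against the mean of soy and lard (0.195%), so the calls of Cth, Tat and Asl were lost. The number of livers, 3 or 4 a diet, limits the precision.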

Other observations

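Many of the 37 genes are known as periportal, and markers of both zones of the liver lobule were measured. On the TMM scale the summed level of 9 other periportal genes was 8298 to 9478 CPM in control, 8534 to 9859.8 in soy, 7316 to 8443 in fish and 8496 to 9696 in lard livers. Fish livers lay below all lard and soy livers and overlapped with the controls. By single gene, 6 of the 9 estimates were below 0 and 3 above, both for fish minus soy and for fish minus lard. The summed level of 9 tested pericentral genes was 9370.4 to 12755 CPM in control, 11028 to 13381 in soy, 12708 to 16097 in fish and 10929 to 17799.6 in lard livers, and all diets overlapped with control. Most of each pericentral sum is Cyp2e1, at 7719.5 to 14179 CPM over the 15 livers. The highest lard sum, in lard 1130, holds 5516 CPM of Cyp1a2, which was at 109 to 409 CPM in the other 14 livers. The part of these levels in the results on the 37 genes was not tested.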
